A study of Mus musculus with 19 samples.

Results

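The transcripts of 10 genes that mark T cells and natural killer (NK) cells were followed in 19 RNA-seq libraries of mouse mammary glands and mammary tumors. The genes were chosen by name, and each was matched to 1 row of the 46078 genes in the table of normalized counts. They are *Cd3e* and *Cd3d*, *Cd4* and *Cd8a*, *Foxp3*, *Pdcd1* and *Ctla4*, *Gzmb* and *Prf1*, and *Ncr1*. T cells recognize antigen through a receptor whose signal is carried by the CD3 chains, with CD4 marking helper and regulatory T cells and CD8 marking cytotoxic T cells. Regulatory T cells are set by the transcription factor FOXP3, and the receptors PD-1 (*Pdcd1*) and CTLA-4 restrain activated T cells. Cytotoxic T cells and NK cells kill through perforin (*Prf1*), which lets granzymes such as granzyme B (*Gzmb*) enter the target cell, and mouse NK cells carry the activating receptor NCR1 (NKp46).

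The mice with the *MMTV-neu* transgene were female, on a mixed FVB/C57/BALB/c background, and the background of the wild-type mice is not given in the sources used here. The *MMTV-neu* transgene expresses wild-type ERBB2 in mammary epithelium, *Fsp-Cre* expresses Cre recombinase in fibroblasts, and *p53wm-R172H* is a conditional allele that yields wild-type p53 until Cre converts it to the R172H mutant. MG_WT is 3 glands of age-matched wild-type mice, which carry none of these alleles. MG_N is 4 glands of tumor-bearing mice, of which replicate 1 is *MMTV-neu;Fsp-Cre* and replicates 2, 3 and 4 are *MMTV-neu;p53wm-R172H/+* without Cre. MG_NP is 4 glands of tumor-bearing *MMTV-neu;p53wm-R172H/+;Fsp-Cre* mice. T_N is 4 tumors of *MMTV-neu;Fsp-Cre* mice, and T_NP is 4 tumors of *MMTV-neu;p53wm-R172H/+;Fsp-Cre* mice. The glands of tumor-bearing mice held no malignant lesion according to the study, and ages in numbers are not given in the sources used here. T_N and MG_N therefore differ in tissue and, for 3 of the 4 glands, in alleles, and recombination in T or NK cells themselves was not tested. T_NP replicates 1 and 2 have library names that share a number, and whether they come from 1 mouse is not given in the sources used here.

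Reads recovered from the normalized counts totalled 20899152 to 27262440 in the 16 libraries of tumor-bearing mice and 54677315 to 62645459 in MG_WT, so that depth and the MG_WT group cannot be told apart. White adipocyte markers summed to 2297 to 3588 normalized counts in MG_WT against 342069 to 437574 in MG_N and 160122 to 455151 in MG_NP, and luminal epithelial markers to 77434 to 92548 in MG_WT against 8851 to 27252 in the other glands. Glands of wild-type and tumor-bearing mice thus differed in more than their alleles, and adipocyte transcripts were low in the MG_WT libraries for a tissue labelled mammary gland. Skeletal muscle transcripts took 7.26% of the reads in MG_NP replicate 2, 3.77% in replicate 4 and 1.49% in replicate 1, against at most 0.0894% in any other library. A normalized count is the number of reads divided by 1 factor per library. In bulk tissue, fewer T or NK cells and less RNA per cell cannot be told apart.

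*Cd3d* and *Cd3e* lie next to each other on chromosome 9 (GRCm38). *Cd3d* runs from 44981786 to 44987339 on the plus strand and *Cd3e* from 44998740 to 45009627 on the minus strand, and their nearest coordinates are 11401 bases apart. *Cd3g* lies on the minus strand, and its highest coordinate is 1355 bases from the lowest of *Cd3d*. *Gzmb* lies at chromosome 14, 56258838 to 56262260 on the minus strand, *Prf1* at chromosome 10, 61297833 to 61304680 on the plus strand, and *Ncr1* at chromosome 7, 4337724 to 4345164 on the plus strand. The 250 bases before the RefSeq start site are shown for *Cd3e*, the T cell gene with a large difference between tumors and glands, and for *Gzmb*, *Prf1* and *Ncr1*, the cytotoxic and NK cell genes that did not all behave alike. Each is printed 5′ to 3′ on the gene's own strand (RefSeq, GRCm38.p6), and capitals mark matches to TGTGGT (the core bound by RUNX factors), AGGAAG (an ETS-type site) or TGANTCA (the AP-1 site), on either strand.
*Cd3e*, chr9:45009612-45009861, minus strand: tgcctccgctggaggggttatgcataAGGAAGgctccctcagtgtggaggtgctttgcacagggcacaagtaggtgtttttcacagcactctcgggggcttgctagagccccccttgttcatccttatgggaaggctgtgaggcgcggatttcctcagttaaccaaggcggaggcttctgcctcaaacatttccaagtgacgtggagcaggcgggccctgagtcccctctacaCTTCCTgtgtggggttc
*Gzmb*, chr14:56262335-56262584, minus strand: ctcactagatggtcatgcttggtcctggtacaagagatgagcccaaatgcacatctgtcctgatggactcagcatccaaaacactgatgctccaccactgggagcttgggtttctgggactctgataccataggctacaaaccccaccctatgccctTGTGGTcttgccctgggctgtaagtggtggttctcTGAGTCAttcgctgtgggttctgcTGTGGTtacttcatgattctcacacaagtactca
*Prf1*, chr10:61297586-61297835, plus strand: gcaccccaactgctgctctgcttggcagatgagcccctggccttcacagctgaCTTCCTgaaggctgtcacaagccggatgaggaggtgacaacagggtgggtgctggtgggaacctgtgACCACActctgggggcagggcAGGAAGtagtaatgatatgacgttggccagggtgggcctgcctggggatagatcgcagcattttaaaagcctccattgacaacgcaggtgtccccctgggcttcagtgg
*Ncr1*, chr7:4337465-4337714, plus strand: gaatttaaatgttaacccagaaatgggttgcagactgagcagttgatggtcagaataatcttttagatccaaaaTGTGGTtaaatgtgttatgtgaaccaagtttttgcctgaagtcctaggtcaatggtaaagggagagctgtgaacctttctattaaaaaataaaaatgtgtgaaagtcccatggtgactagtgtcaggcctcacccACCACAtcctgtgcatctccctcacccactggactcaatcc

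Of the 10 genes, 9 had a RefSeq promoter of this kind, all but *Cd4*. TGTGGT was found before *Gzmb*, *Prf1* and *Ncr1* and before none of the other 6, and 14.0% of all 32851 promoters held it. In *Gzmb* the matches began 93 and 34 bases before the start, on either side of the TGANTCA match that began 58 bases before it. That AP-1 match was the only one among the 9 genes, and 6.75% of all promoters held one. AGGAAG was found in 5 of the 9 (*Cd3e*, *Cd3d*, *Pdcd1*, *Ctla4* and *Prf1*) and in 29.5% of all promoters. A match is a description of letters and no measure of binding.

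The first question was how T and NK cell transcripts in tumors compared with those in glands of mice of the same cohort. The 4 glands of MG_N held 118, 100, 107 and 426 normalized counts of *Cd3e*, which encodes the CD3 epsilon chain of the T cell receptor complex. The 4 T_N tumors held 11.4, 3.16, 13.1 and 7.0. Every tumor lay below every gland, and *Cd3e* was called lower, with a log2 fold change of -4.14 (SE 0.58, adjusted p = 0.00064). MG_N replicate 1, the only gland with the alleles of the T_N tumors, held 118. In mice with the Cre-converted allele, the MG_NP glands held 510, 51.4, 488 and 54.2 and the T_NP tumors 2.24, 19.5, 15.6 and 8.74. The groups again did not overlap although the glands split into a high and a low pair, and the log2 fold change was -4.01 (SE 0.94, adjusted p = 0.0068).

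*Cd3d*, which encodes the CD3 delta chain, held 76.4, 40.2, 81.7 and 311 normalized counts in MG_N against 12.5, 2.11, 20.2 and 2.33 in T_N. In MG_NP it held 321, 22.8, 408 and 27.1 against 3.36, 11, 15.6 and 12.5 in T_NP. Tumors and glands did not overlap in either cohort, although MG_NP replicate 2 lay just above the highest T_NP tumor. It fell by 3.69 on the log2 scale in T_N (SE 0.81, adjusted p = 0.0055) and by 3.22 in T_NP (SE 1.01, adjusted p = 0.024). Without T_NP replicate 1 the adjusted p in the second comparison was 0.064, and it was 0.062 and 0.052 without MG_NP replicate 1 or 3.

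*Cd4*, the coreceptor of helper and regulatory T cells, held 404, 339, 203 and 1005 normalized counts in MG_N and 54.5, 14.8, 69.7 and 25.7 in T_N. It was called lower in T_N, with a log2 fold change of -3.52 (SE 0.60, adjusted p = 0.0016). MG_NP held 1176, 71.4, 1167 and 52.9, and T_NP held 20.2, 72.0, 66.2 and 57.4. The 2 low glands lay within the range of the tumors, and the log2 fold change of -2.45 was not called (SE 1.09, adjusted p = 0.084), while edgeR (adjusted p = 0.020) and DESeq2 (adjusted p = 0.00033) on the recovered reads called it. Limma called it too without MG_NP replicate 2 (adjusted p = 0.044) or 4 (0.027), or with all 5 groups in 1 fit (0.026). Some macrophages and dendritic cells also express *Cd4* at low levels. The macrophage markers were called lower for 3 of 8 in T_N and 2 of 8 in T_NP, and their part in the *Cd4* reads was not tested.

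*Cd8a*, the coreceptor chain of cytotoxic T cells, held 195, 329, 323 and 766 normalized counts in MG_N and 40.9, 14.8, 64.6 and 18.7 in T_N. MG_NP held 915, 72.8, 920 and 106 and T_NP held 7.85, 53.7, 45.5 and 21.2. In both cohorts the lowest gland lay above the highest tumor. The log2 fold changes were -3.55 (SE 0.55, adjusted p = 0.0011) and -3.43 (SE 0.97, adjusted p = 0.016).

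Transcripts of *Foxp3*, which sets the regulatory T cell fate, were few everywhere. MG_N held 11.5, 4.60, 9.39 and 41.2 normalized counts, MG_NP held 59.1, 2.85, 36.8 and 0, and MG_WT held 12.4, 16.1 and 12.4. Of the 8 tumors, 6 had no *Foxp3* read, T_N replicate 3 had 4 reads and T_NP replicate 3 had 1. The gene did not pass the filter on low counts in either comparison of tumor and gland, and so it was not tested. All T_NP tumors were at or under 3 reads, the limit that a count of 0 allows in 1 library, and against that limit in each library the mean of T_NP was at least 6.74-fold lower than that of MG_NP. That bound covers counting error only and rests on MG_NP replicates 1 and 3. It was 3.61-fold without replicate 1, and MG_NP replicate 4 had no read.

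*Ctla4*, whose product competes with the costimulatory receptor CD28 for its ligands, was also near the limit of counting in tumors. It held 26.8, 8.05, 20.7 and 127 normalized counts in MG_N, 207, 4.28, 157 and 33.6 in MG_NP, 2.27, 0, 8.08 and 3.5 in T_N and 4.48, 7.32, 9.09 and 1.25 in T_NP. All 8 tumors were below 10 normalized counts, and MG_N replicate 2 and MG_NP replicate 2 lay within the range of the tumors. It too did not pass the filter. Without the filter *Ctla4* was called lower in both comparisons and *Foxp3* in T_N. In that setting 26.5% of 29571 genes in T_N and 29.5% of 29808 in T_NP were called in either direction. Tumor values of both genes are near 0, so these calls depend on the pseudocount and are no support.

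*Pdcd1*, the gene of PD-1, was the member of this kind that passed the filter. MG_N held 24.2, 13.8, 11.3 and 58.7 normalized counts and T_N held 3.41, 4.21, 39.4 and 3.5. MG_NP held 155, 8.56, 63.9 and 2.58, and T_NP held 12.3, 9.76, 9.09 and 21.2. Tumors and glands overlapped in both cohorts, and neither log2 fold change was called: -1.51 in T_N (SE 0.81, adjusted p = 0.15) and -0.86 in T_NP (SE 1.08, adjusted p = 0.52). T_N replicate 3 decided the first of these, since without it *Pdcd1* was at -2.28 and was called (adjusted p = 0.013). Leaving out MG_NP replicate 1 took the second to 0.04.

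*Gzmb* was the exception among the members. The T_N tumors held 107, 24.2, 17.2 and 93.4 normalized counts and the MG_N glands 47.1, 9.19, 45.1 and 66.9. The T_NP tumors held 42.6, 63.4, 87.0 and 22.5 and the MG_NP glands 22.9, 32.8, 86.6 and 15.5. Tumors and glands overlapped widely, and the fitted change was above 0 in both cohorts but not called, at 0.40 in T_N (95% interval -1.36 to 2.16, adjusted p = 0.69) and 0.58 in T_NP (95% interval -0.77 to 1.92, adjusted p = 0.43). These intervals hold neither of the falls seen for *Cd3e*. *Gzmb* belongs to a cluster of similar granzyme genes on chromosome 14, and how reads that match several of them were counted is not given in the sources used here, so a part of its count could come from a close copy.

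*Prf1*, whose product opens the way for granzymes, did fall. MG_N held 62.4, 12.6, 42.3 and 235 normalized counts against 7.95, 5.27, 17.2 and 14.0 in T_N, and the log2 fold change was -2.29 (SE 0.80, adjusted p = 0.039). MG_NP held 320, 27.1, 430 and 15.5 against 1.12, 19.5, 18.2 and 4.99 in T_NP, and the log2 fold change was -3.41 (SE 1.21, adjusted p = 0.039). In each cohort 1 gland lay within the range of the tumors. Both calls were lost when single libraries were left out: the adjusted p in T_N rose to between 0.059 and 0.090 without MG_N replicate 1, 3 or 4 or T_N replicate 1, 2 or 4, and in T_NP to between 0.087 and 0.099 without MG_NP replicate 1 or 3 or T_NP replicate 1 or 4. The T_N call was also lost with all 5 groups in 1 fit (adjusted p = 0.067), and the T_NP call with T_NP replicates 1 and 2 averaged (0.072).

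*Ncr1*, the NK cell receptor gene, held 66.2, 19.5, 29.1 and 111 normalized counts in MG_N and 4.54, 8.43, 6.06 and 17.5 in T_N. MG_NP held 37.2, 22.8, 35.7 and 34.9 and T_NP 5.61, 4.88, 10.4 and 1.25. Every tumor lay below every gland in both cohorts, by a log2 fold change of -2.35 in T_N (SE 0.61, adjusted p = 0.012) and -2.56 in T_NP (SE 0.49, adjusted p = 0.0026). *Ncr1* was the member with the least spread among MG_NP glands, 32.7 ± 6.62 (SD, n = 4), where *Cd3e* was at 276 ± 258.

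**Figure D1:**
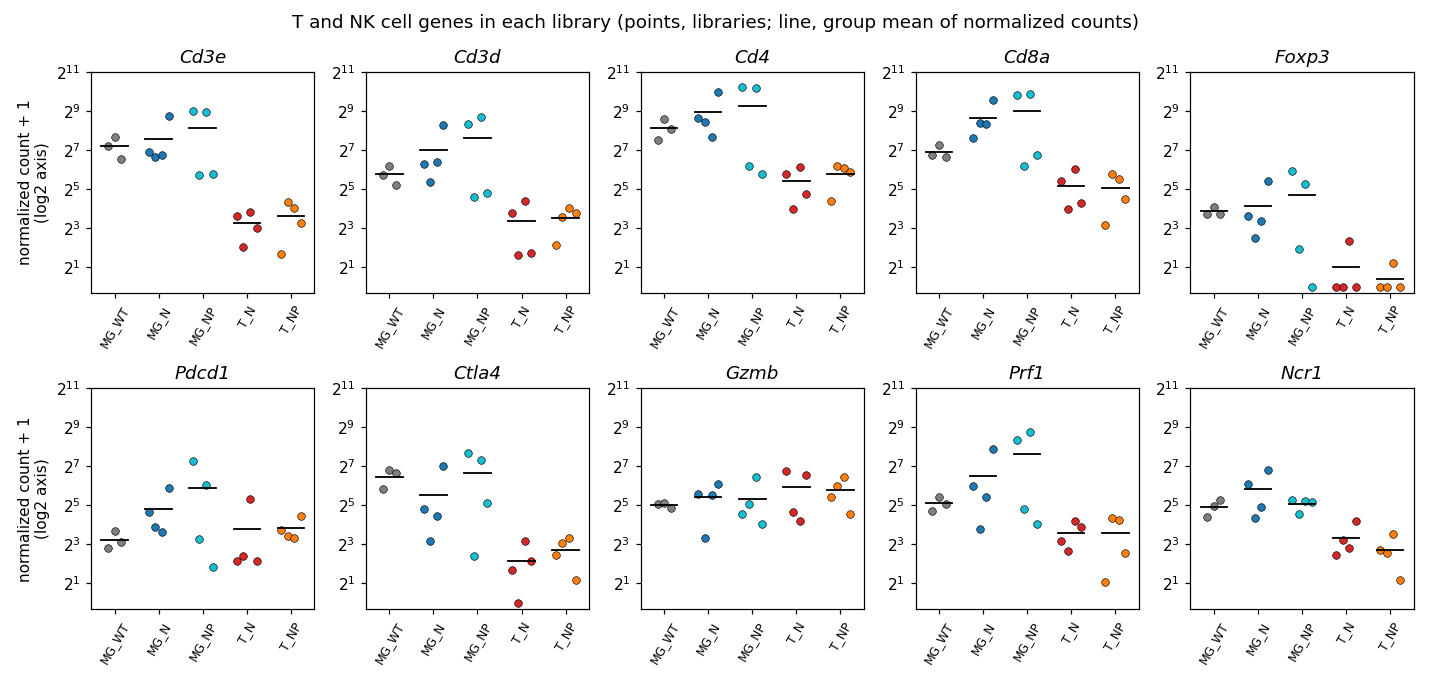
Normalized counts plus 1 (vertical axis, log2) of the 10 genes in each of the 19 libraries, by group; points are libraries and lines are group means of the normalized counts. For *Cd3e* the 8 tumors lie between 2.24 and 19.5 and the 8 glands of tumor-bearing mice between 51.4 and 510, while for *Gzmb* tumors (17.2 to 107) and glands (9.19 to 86.6) overlap.

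Of the 8 members tested in T_N, 6 were called lower and none higher, where 22.3% of all 17950 genes tested were called lower and 12.8% higher. Every tumor lay below every gland for 5 of these 8 members and for 26.4% of all genes tested. In T_NP, 5 of 8 were called lower and none higher, against 24.0% of 17880 genes called lower and 14.7% higher, and 4 of 8 did not overlap against 27.4% of all. The median log2 fold change of the members tested was -2.94 in T_N and -2.89 in T_NP, and that of all genes tested was -0.05 and -0.07. Leaving out 1 library gave 5 to 8 lower calls in T_N, 8 of them without T_N replicate 3, and 3 to 7 in T_NP, with 3 without MG_NP replicate 1, without MG_NP replicate 3 or without T_NP replicate 1 and 7 without MG_NP replicate 2. With T_NP replicates 1 and 2 averaged as 1 sample, 3 members (*Cd3e*, *Cd8a* and *Ncr1*) were called. Without the muscle-rich MG_NP glands 2 and 4, which are also the glands with the fewest *Cd3e* counts, 9 members were called lower in T_NP against 24.1% of 18934 genes. That alternative was chosen after seeing the data and describes MG_NP replicates 1 and 3, and *Foxp3* and *Ctla4* passed its filter through those glands alone.

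**Figure D2:**
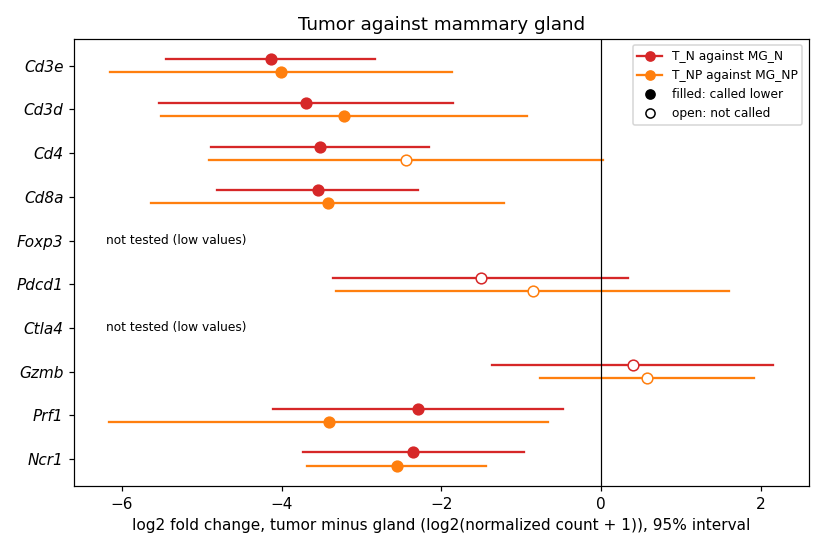
Log2 fold change of each gene, tumor minus gland (horizontal axis, on the scale of log2(normalized count + 1)), with 95% intervals, in T_N against MG_N and T_NP against MG_NP; filled points were called lower. *Cd3e* is at -4.14 and -4.01 and *Gzmb* at 0.40 and 0.58, and *Foxp3* and *Ctla4* were not tested.

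The difference between the cohorts was tested directly, as the change in T_NP against MG_NP minus the change in T_N against MG_N. None of the 10 members was called by limma, none had an unadjusted p under 0.05, and neither edgeR nor DESeq2 called one, with 0% of 19367 genes called higher and 0% lower by limma, 1536 at an unadjusted p under 0.05, 0 called by edgeR and 319 by DESeq2. The difference was 0.13 for *Cd3e* (95% interval -2.37 to 2.62) and 1.07 for *Cd4* (95% interval -1.76 to 3.90). The intervals are wide, and a difference of 4-fold in either direction lies inside that of *Cd3e*.

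Other genes of the same cells were described from lists of 49 genes. In T_N, 34 of the 44 tested were called lower and 1 higher, with a median log2 fold change of -3.00, and in T_NP 34 of 42 were lower and 0 higher, with a median of -3.15. Of all genes tested, 22.3% were called lower in T_N and 24.0% in T_NP. Some of the listed genes, among them *Icos* in T_N, passed the filter on low counts through the glands alone. The receptor and CD3 chains were lower for 6 of 6 in each cohort. Among T cell surface and signalling genes, 16 of 16 were lower in T_N and 14 of 16 in T_NP, where *Cd6* and *Il7r* were not called. NK cell receptors were lower for 4 of 5 tested in each, cytotoxic effectors for 5 of 9 in T_N and 6 of 8 in T_NP, and regulatory and checkpoint genes for 3 of 8 and 4 of 7. In the last list *Havcr2*, which encodes the receptor TIM-3, held 92.8 ± 43.3 (SD, n = 4) in MG_N and 155 ± 43.9 (SD, n = 4) in T_N, and was not called (adjusted p = 0.12). It held 107 ± 69.6 (SD, n = 4) in MG_NP and 190 ± 58.1 (SD, n = 4) in T_NP, where no gene of that list was called higher.

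Large falls in T_N were seen in *Icos* and *Themis*. *Icos*, a costimulatory receptor of activated T cells, was at -4.96 (SE 0.74, adjusted p = 0.00086), and *Themis*, a signalling protein of developing T cells, at -4.87 (SE 0.67, adjusted p = 0.00061). No T_N tumor held more than 7 reads of *Icos*, which passed the filter on low counts through the MG_N glands alone. Its test is therefore no independent support for the fall. In T_NP large falls were seen in *Cd2* (-4.71, SE 1.01, adjusted p = 0.0044) and *Cd5* (-4.25, SE 1.19, adjusted p = 0.015). *Cd2* encodes an adhesion receptor and *Cd5* an inhibitory surface receptor of T cells.

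The 1 gene that rose was another granzyme. *Gzmc*, granzyme C, held 5.09, 1.15, 1.88 and 6.18 normalized counts in MG_N and 23.9, 29.5, 26.3 and 35 in T_N. All 4 tumors lay above all 4 glands, with a log2 fold change of 2.86 (SE 0.45, adjusted p = 0.0011). *Gzmc* passed the filter on low counts through the T_N tumors alone, so this test is no independent support for the rise. The share of all genes with every tumor above every gland was not counted. How reads that match several granzyme genes were counted is not given for *Gzmc* either. In T_NP *Gzmc* held 29.2, 15.9, 5.20 and 2.50, against 1.91, 1.43, 7.58 and 0 in MG_NP, and did not pass the filter. *Gzma*, granzyme A, held 63.5 ± 45.0 (SD, n = 4) in MG_N and 64.9 ± 53.4 (SD, n = 4) in T_N, and 37.9 ± 23.9 (SD, n = 4) in MG_NP and 41.4 ± 42.6 (SD, n = 4) in T_NP, and was called in neither (adjusted p = 0.88 and 0.82). The 3 tumors with the most *Gzma* were those with the most *Gzmb*, with T_N replicates 1 and 4 at 101 and 120 of *Gzma* and 107 and 93.4 of *Gzmb*, and T_NP replicate 3 at 104 and 87.0. *Gzmm*, granzyme M, was called lower in T_NP and not in T_N, where its adjusted p was 0.29, and in the test of the difference between the cohorts its adjusted p was 0.32.

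Of the 4 genes of checkpoint receptor ligands, 4 were called lower in T_N and 2 in T_NP. *Cd274*, which encodes the PD-1 ligand PD-L1, held 614, 429, 346 and 714 normalized counts in MG_N and 51.1, 165, 124 and 207 in T_N, and 615, 217, 644 and 971 in MG_NP and 85.2, 68.3, 98.7 and 101 in T_NP. No tumor reached the lowest gland of its cohort, and the log2 fold changes were -2.05 (SE 0.44, adjusted p = 0.0049) and -2.61 (SE 0.42, adjusted p = 0.0011). *Pdcd1lg2* (PD-L2) was called lower in T_N (-2.95, SE 0.89, adjusted p = 0.023) and was not tested in T_NP. That call was lost without MG_N replicate 1, 3 or 4 or T_N replicate 1 or 2 (adjusted p 0.050 to 0.065). Of the CTLA-4 ligands, *Cd80* was lower in both (-3.19, adjusted p = 0.0064 in T_N and 0.0052 in T_NP), and *Cd86* was called lower in T_N (-1.65, adjusted p = 0.015) and not in T_NP (-0.83, adjusted p = 0.22), where it was called without MG_NP replicate 2 (adjusted p = 0.045). *Serpinb9*, an inhibitor of granzyme B, moved little, by -0.59 in T_N (adjusted p = 0.037, under the 2-fold threshold) and -0.18 in T_NP (adjusted p = 0.65).

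Markers of several other cell types were lower in tumors too. The pan-leukocyte gene *Ptprc* (CD45) was lower in both cohorts, at 6839 ± 4363 normalized counts (SD, n = 4) in MG_N against 1307 ± 292 (SD, n = 4) in T_N and 8559 ± 7373 (SD, n = 4) in MG_NP against 1055 ± 231 (SD, n = 4) in T_NP. B cell markers were called lower for 7 of 8 tested in T_N and 8 of 9 in T_NP, lymph node stroma and venule markers for 3 of 3 and 2 of 2, dendritic cell markers for 5 of 5 and 5 of 5, and mast cell markers for 6 of 6 and 6 of 6. White adipocyte markers were lower for 8 of 8 in both, and luminal epithelial markers were called higher for 7 of 8 and lower for 1 of 8 in both. Skeletal muscle markers were called lower for 8 of 8 in T_NP (median log2 fold change -7.99) and 0 of 8 in T_N (-1.57), and macrophage markers, at a median of -0.66 in T_N and -0.05 in T_NP, were mostly not called. The summed level of B cell markers was 42.1 to 716 in T_N and 59.4 to 550 in T_NP against 169 to 10325 in MG_N and 338 to 18268 in MG_NP. Lymph node stroma and venule markers summed to 4.67 to 75.7 in T_N and 7.85 to 133 in T_NP against 268 to 2973 and 173 to 3529, and 1 of these 5 genes was at 0 in every tumor of each cohort. The part of the lymph node, of fat, of muscle or of epithelium in the T and NK cell differences was not tested.

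Spread among the glands was wide. Over the 8 glands of tumor-bearing mice, *Cd3e* ranged 9.93-fold, *Cd4* 22.2-fold, *Cd8a* 12.6-fold and *Prf1* 34.0-fold, whereas *Ncr1* ranged 5.69-fold. MG_NP replicates 1 and 3 and MG_N replicate 4 were the 3 highest libraries of all 19 for *Cd3e*, and they were also the 3 highest for *Prf1*. The summed B cell markers were 10293 and 18268 in MG_NP replicates 1 and 3 and 10325 in MG_N replicate 4, and 338 in MG_NP replicate 2 and 169 in MG_N replicate 2. In MG_N replicate 1 that sum was 8448 with a *Cd3e* count of 118. Lymph node stroma and venule markers were highest in the same 3 glands, at 2973 to 3529, and 173 to 1416 in the other 5. The lists include *Cr2* of B cells and the lymph node chemokine genes *Ccl19*, *Ccl21a* and *Cxcl13*, and the part of lymph node tissue in the T cell values of these glands was not tested.

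**Figure D3:**
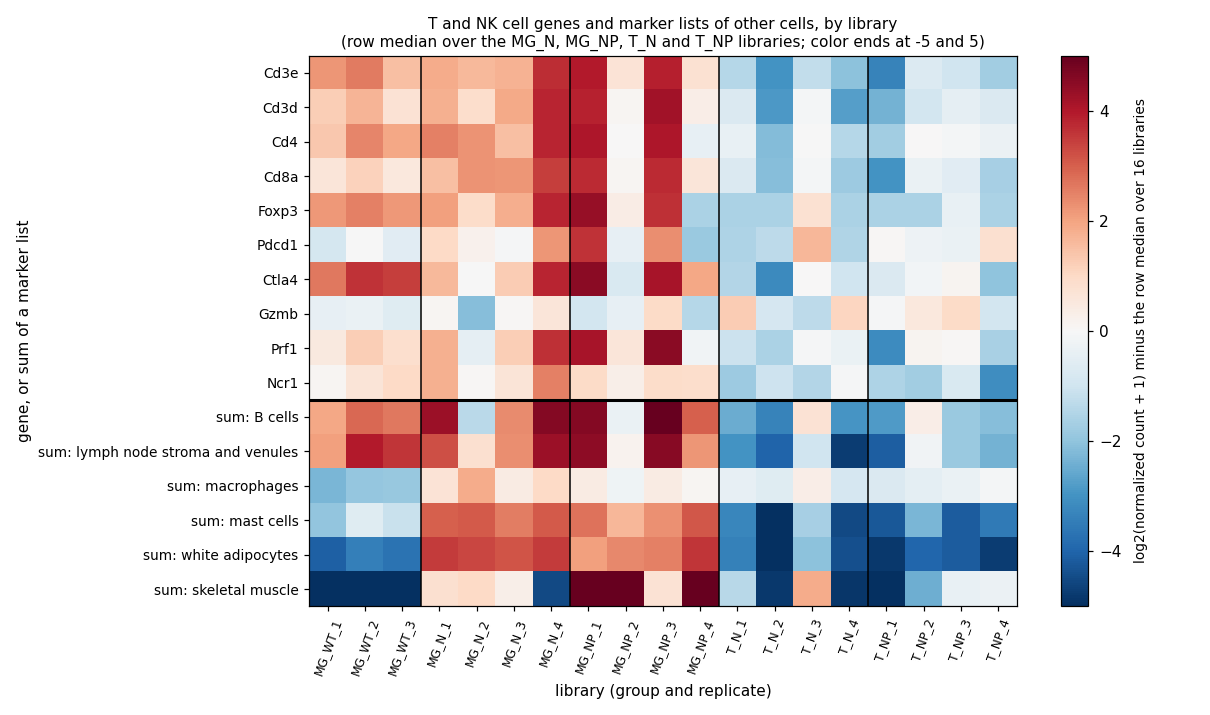
Each row is a gene, or the sum of a marker list of another cell type, and each column a library; color gives log2(normalized count + 1) minus the row's median over the 16 libraries of tumor-bearing mice, ending at -5 and 5. MG_N replicate 4 and MG_NP replicates 1 and 3 are high for most members, B cell markers (10293 to 18268) and lymph node markers (2973 to 3529), and skeletal muscle sums are highest in MG_NP replicates 1, 2 and 4.

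Against wild-type glands, *Cd8a* was the 1 member of 10 called higher in MG_N and none was called lower, where 19.1% of 19017 genes tested were called higher and 17.9% lower. *Cd8a* held 105, 154 and 98.7 normalized counts in MG_WT, below each MG_N gland, with a log2 fold change of 1.59 (SE 0.42, adjusted p = 0.012). With all 5 groups in 1 fit that adjusted p was 0.14. *Pdcd1* held 5.97, 11.7 and 7.75 in MG_WT and was 1.32 higher in MG_N without being called (SE 0.56, adjusted p = 0.075), though edgeR (adjusted p = 0.047) and DESeq2 (adjusted p = 0.028) called it, as did limma without MG_N replicate 3 (adjusted p = 0.040). *Ctla4* was at 55.4, 109 and 98.2 in MG_WT, with a log2 fold change of -1.56 that was not called (SE 0.79, adjusted p = 0.12). MG_N replicate 4, at 127, lay above all MG_WT glands, and without it the change was -2.28 and was called (adjusted p = 0.0058). *Cd3e* was at 148, 199 and 91.5 in MG_WT, which overlapped MG_N although replicate 3 lay below its lowest gland, and *Ncr1* was at 20.04, 29.8 and 37.7, within the range of the MG_N glands.

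Among the other T and NK cell genes tested in MG_N against MG_WT, 3 of 46 were higher and 4 lower. Of all 19017 genes tested, 19.1% were called higher and 17.9% lower. *Cd3g*, the CD3 gamma chain, was at 52.5, 52.2 and 31.0 in MG_WT and 134, 100, 178 and 581 in MG_N (log2 fold change 2.11, SE 0.56, adjusted p = 0.012), *Cd8b1*, the second CD8 chain, rose by 1.83 (SE 0.51, adjusted p = 0.015) and *Themis* by 1.62 (SE 0.41, adjusted p = 0.0097). *Ifng*, encoding interferon gamma, fell by 2.61 (SE 0.68, adjusted p = 0.011), from 22.7 ± 2.31 (SD, n = 3) to 3.89 ± 2.82 (SD, n = 4), *Bcl11b* by 1.59 (SE 0.46, adjusted p = 0.017) and *Ikzf2* by 1.23 (SE 0.16, adjusted p = 0.00030). No MG_N gland held more than 7 reads of *Ifng*, which passed the filter on low counts through the deeper MG_WT libraries alone. Its test is therefore no independent support for the fall. Without MG_WT replicate 3 the calls of *Cd3g* (adjusted p = 0.051), *Cd8b1* (0.062) and *Bcl11b* (0.052) were lost, that of *Bcl11b* also without MG_WT replicate 1 (0.052), and with all 5 groups in 1 fit *Cd3g*, *Cd8b1*, *Themis* and *Bcl11b* were not called (0.11 to 0.18). *Bcl11b* and *Ikzf2* encode transcription factors of T cells that other tissues also express. In the same comparison macrophage markers were higher for 8 of 8, mast cell markers for 6 of 6, dendritic cell markers for 3 of 5, white adipocyte markers for 8 of 8 and skeletal muscle markers for 8 of 8 (median log2 fold change 5.54), and luminal epithelial markers were lower for 8 of 8.

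In MG_NP against MG_WT, limma called none of the 10 members, with 0 at an unadjusted p under 0.05, 0 called by edgeR and 3 by DESeq2 (*Cd8a*, *Pdcd1* and *Prf1*, all higher). Limma called 16.4% of 19065 genes higher and 16.2% lower, and DESeq2 called 20.9% higher. *Prf1* was at 25.2, 42.5 and 32.6 in MG_WT, below MG_NP replicates 1 and 3 and above replicate 4, with a log2 fold change of 1.41 (SE 1.19, adjusted p = 0.36). *Cd8a* was 1.27 higher (SE 0.97, adjusted p = 0.31). Without the muscle-rich glands 2 and 4 the count was 8, all higher, namely the members other than *Gzmb* and *Ncr1*, against 18.7% of 19272 genes. Those 2 remaining glands are the ones with the most *Cd3e*, so that this count describes MG_NP replicates 1 and 3 and not the group. Of the other T and NK cell genes, 2 of 46 were higher and 2 lower. *Cd160*, a receptor of NK and cytotoxic T cells, was 2.08 higher (SE 0.69, adjusted p = 0.042) and *Gzmm* 1.33 higher (SE 0.33, adjusted p = 0.014), while *Ikzf2* fell by 1.55 (SE 0.21, adjusted p = 0.0012) and *Ifng* by 1.26 (SE 0.34, adjusted p = 0.020). *Cd160* passed the filter on low counts through the MG_NP glands alone, and for *Ifng* the MG_WT glands were enough to pass it. The tests of these 2 genes are therefore no independent support for their changes. The *Cd160* call was lost when any MG_WT gland, or MG_NP replicate 1 or 3, was left out (adjusted p 0.076 to 0.14), the *Ifng* call when any MG_WT gland was (0.062 to 0.082), and the *Gzmm* call without MG_WT replicate 2 (0.0501). In the fit of all 5 groups *Cd160* (0.066) and *Ifng* (0.11) were not called. With a pseudocount of 5, *Ifng* was at -0.99, under the 2-fold threshold, and *Cd160* had an adjusted p of 0.0504. Limma without the filter on low counts gave *Cd160* an adjusted p of 0.057.

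Glands with and without the converted p53 allele were compared next. No member of 10 was called in MG_NP against MG_N by limma, edgeR or DESeq2, none had an unadjusted p under 0.05, and 0% of 18563 genes were called higher and 0% lower by limma, with 1950 at an unadjusted p under 0.05, 0 called by edgeR and 514 by DESeq2. *Cd3e* differed by 0.09 on the log2 scale (95% interval -1.97 to 2.16) and *Ncr1* by -0.49 (95% interval -1.69 to 0.71). The group means of *Cd3e* were 276 ± 258 (SD, n = 4) in MG_NP and 188 ± 159 (SD, n = 4) in MG_N. The spread within each group was about as large as its mean, and a 3-fold difference in either direction was within the interval for *Cd3e*. With the skeletal muscle score as a covariate the *Ncr1* difference was 0.45.

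Tumors with and without the converted allele were compared in the same way. Of the 6 members tested in T_NP against T_N, none was called by limma, edgeR or DESeq2 and none had an unadjusted p under 0.05. Over all 16638 genes, limma called 0.0361% higher and 0.00601% lower, with 1210 at an unadjusted p under 0.05. By edgeR 0 of these genes were called, and by DESeq2 85. *Foxp3*, *Pdcd1*, *Ctla4* and *Ncr1* were below the filter on low counts. *Cd3e* was at 8.66 ± 4.48 (SD, n = 4) in T_N and 11.5 ± 7.62 (SD, n = 4) in T_NP, a log2 difference of 0.22 (95% interval -1.27 to 1.71). *Cd4* was at 41.2 ± 25.4 (SD, n = 4) and 54.0 ± 23.3 (SD, n = 4), a log2 difference of 0.47 (95% interval -0.84 to 1.78). These rest on few reads, at most 13 in any T_N tumor and 16 in any T_NP tumor for *Cd3e*.

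Levels between genes were compared per kilobase of exon. In T_N, *Gzmb* was the most abundant member, at 42.1 ± 32.2 normalized counts per kilobase (SD, n = 4), ahead of *Cd4* at 10.2 ± 6.29 and *Cd8a* at 9.55 ± 6.33, and *Foxp3* was lowest at 0.221 ± 0.441. In T_NP the order was *Gzmb* at 37.5 ± 19.3 (SD, n = 4), *Cd4* at 13.4 ± 5.78 and *Cd8a* at 8.81 ± 5.83. In the MG_N glands *Cd4* at 121 ± 88.0 per kilobase and *Cd8a* at 111 ± 68.7 led, with *Gzmb* at 29.3 ± 16.7, and in MG_WT *Cd4* at 69.1 ± 25.5 and *Ctla4* at 37.6 ± 12.2. Within libraries, *Cd8a* lay below *Cd4* per kilobase in 4 of 4 T_NP tumors and 3 of 3 MG_WT glands, and in 2 of 4 libraries each of MG_N, MG_NP and T_N.

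Ratios between members were compared within libraries, as the ratio of normalized counts plus 1. *Gzmb* over *Cd3e* was 0.40, 0.10, 0.43 and 0.16 in MG_N and 8.72, 6.06, 1.29 and 11.8 in T_N, and 0.047, 0.65, 0.18 and 0.30 in MG_NP and 13.5, 3.14, 5.31 and 2.41 in T_NP. All 8 tumors lay above all 8 glands. The exact two-sided permutation test gave p = 0.029 in each cohort, the smallest p that 4 against 4 allows, and 0.17 after adjustment over the 24 ratio tests, so that neither passed. The difference of the mean log2 ratios was 4.54 in T_N and 4.59 in T_NP. The tumor ratios rest on 2 to 16 reads of *Cd3e* in each tumor and 17 to 94 reads of *Gzmb*.

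*Cd8a* over *Cd4* ranged from 0.48 to 1.59 in MG_N and 0.74 to 1.0 in T_N, and from 0.78 to 1.98 in MG_NP and 0.38 to 0.75 in T_NP. T_NP lay below MG_NP in all libraries (log2 difference -0.98, exact permutation p = 0.029, adjusted p = 0.17), MG_NP lay above MG_WT in all (1.25, exact permutation p = 0.029, adjusted p = 0.17), and T_N did not lie apart from MG_N (-0.03, exact permutation p = 0.83, adjusted p = 0.97). *Ncr1* over *Cd3e* and *Foxp3* over *Cd3e* overlapped between tumors and glands in both cohorts, with exact permutation p from 0.086 to 0.29, adjusted p from 0.34 to 0.69. In 6 of the 8 tumors *Foxp3* had no read, so that the count of 1 added to it sets the ratio there. With a smallest p of 0.029, a single ratio could not pass the adjustment over 24 tests, and none did.

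**Figure D4:**
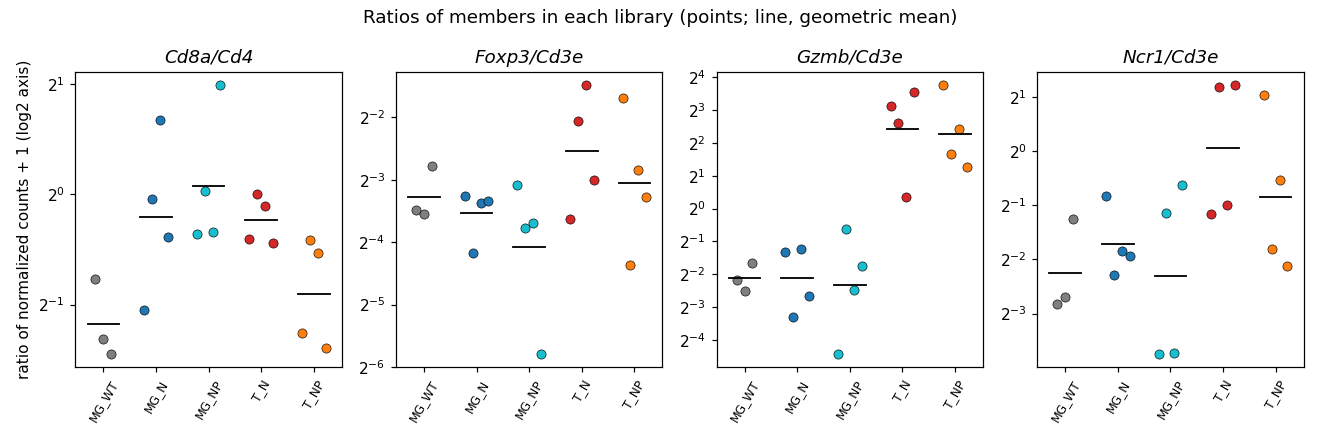
Ratio of normalized counts plus 1 (vertical axis, log2) for 4 pairs of members in each library, by group; points are libraries and lines geometric means. *Gzmb* over *Cd3e* is 1.29 to 13.5 in the 8 tumors and 0.047 to 0.65 in the 8 glands of tumor-bearing mice.

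Across the 16 libraries of tumor-bearing mice genes among those most like *Cd3e* by Pearson correlation of log2 values were *Gpr132* (r = 0.99), *Cxcr3* (0.99), *Gimap1* (0.99) and *Lat* (0.99), out of 14720 genes with a mean of at least 50 normalized counts. *Cxcr3* encodes a chemokine receptor of activated T cells, *Lat* encodes an adaptor of T cell receptor signalling, and *Gimap1* encodes a lymphocyte GTPase. These correlations describe 16 points that fall into glands and tumors, so that the tissue itself sets much of them. Among the members, *Cd8a* (r = 0.98), *Cd3d* (0.97) and *Cd4* (0.96) followed *Cd3e* most closely, *Prf1* (0.92) and *Foxp3* (0.90) less so, *Ncr1* was at 0.80, *Pdcd1* at 0.66 and *Gzmb* at -0.03. Within the 8 glands *Pdcd1* was at 0.94 and *Gzmb* at 0.50, and within the 8 tumors at 0.22 and 0.28. The genes most like *Ncr1* were *Vps13b*, *Mtcp1*, *Urb1*, *Prkdc* and *Nfatc3* (r = 0.92 to 0.93), which are expressed in many cell types.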

How the data were processed

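RNA-seq of 19 mammary gland and tumor samples was analysed from the deposited table. Per the labels and the study's methods, the authors aligned 75-base paired reads to the mouse genome (GRCm38) with TopHat2 (version 2.1.1) and Bowtie2, and deposited a signal proportional to reads, in which each library's counts are scaled by its own DESeq2 size factor. The labels name a total RNA kit and the methods an mRNA kit, and the counting tool and annotation are not given in the sources used here. Whole reads were recovered for 100% of values within a tolerance of 0.05, and T_N replicate 3, whose factor is close to 1, was read in the same way. Of the Ensembl identifiers, 97.97% matched GENCODE mouse release M21 and 935 did not.

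Each comparison was fitted by limma (version 3.58.1, trend) to log2 values with a pseudocount of 1, on the groups compared alone, for genes with at least 10 normalized counts in as many samples as the smaller group holds. A gene was called at an adjusted p (Benjamini-Hochberg over all genes tested) under 0.05 and at least a 2-fold change. Since the pseudocount pulls low values together, the fold changes of low genes are understated. Recovered reads were also fitted by DESeq2 (version 1.42.0) and by the quasi-likelihood test of edgeR (version 4.0.16). Other alternatives were TMM scaling, a pseudocount of 5 or 0.5, no filter, no fold threshold, a replicate block, all 5 groups in 1 fit, each library left out, T_NP replicates 1 and 2 averaged, a muscle covariate, and, chosen after seeing the data, MG_NP without replicates 2 and 4. The scripts were tested on simulated counts with 200 changed genes. Ratios were tested by exact permutation. Named genes are the 10 members, in each comparison the 3 largest called rises and falls on the T and NK cell lists, 4 checkpoint ligands and *Serpinb9*, and the 5 genes most like *Cd3e* and *Ncr1*. *Ptprc*, *Havcr2*, *Gzma*, *Gzmm*, *Cd6* and *Il7r* fall outside this rule and were chosen after their values were seen. The members, the lists and the motifs were chosen with earlier results of these data known. Replicates are separate samples by their labels, and intervals on reads cover counting error only. Some genes that these rules would name are not reported here.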

Additional observations from a re-analysis of the deposited data

Results flagged for a closer look

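In groups of 4, a value was picked out when its gap to the nearest other value was a large share of the group's range (Dixon's test at the 95% level). This picked out 7 values in 40 sets of 4. The rate of about 1 in 20 sets by chance holds for independent, normally distributed values. These sets are normalized counts of genes that share libraries, so the number picked out cannot be set against that rate. The 2 *Foxp3* values among them come from tumor groups whose other 3 values are 0, where any read is picked out. MG_N replicate 4 was far above the other MG_N glands for *Cd3e* (426 normalized counts), *Cd3d* (311) and *Ctla4* (127), the gland with the most B cell marker counts of its group. T_N replicate 3 was far above the other T_N tumors for *Pdcd1* (39.4) and for *Foxp3* (4.04, or 4 reads), and it was also the tumor of its group with the most B cell marker counts, at 716 against 42.1 to 77.3 in the other 3. T_NP replicate 3 was the only T_NP tumor with a *Foxp3* read (1.30, or 1 read). MG_NP replicate 2 was far below the other MG_NP glands for *Ncr1* (22.8), and skeletal muscle markers took 7.26% of its reads.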

How the results depend on the processing

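Of the member counts, those of T_N against MG_N stayed within 1.5 times under every alternative run. In MG_N against MG_WT the count of 1 became 2 with edgeR, with DESeq2 and with the replicate block, and 0 with all 5 groups in 1 fit, and leaving out a library gave 1 to 2. In MG_NP against MG_WT the count of 0 became 3 with DESeq2 and 8 without MG_NP replicates 2 and 4. In T_NP against MG_NP the count of 5 became 3 with T_NP replicates 1 and 2 averaged and 9 without MG_NP replicates 2 and 4, and leaving out a library gave 3 to 7. The counts of 0 in MG_NP against MG_N, in T_NP against T_N and in the difference between cohorts stayed at 0 under all alternatives run, and the ratio tests, which could hardly pass at this group size, say nothing of stability. Outside the fits that leave out a library, 3 fold changes reversed: *Ncr1* in MG_NP against MG_N to 0.45 with the muscle covariate, and the difference between cohorts for *Cd3e* to -0.17 with edgeR and -0.15 with DESeq2. Leaving out a library reversed fitted changes that were not called, over ranges of -0.20 to 0.85 (*Gzmb*, T_N), -1.78 to 0.037 (*Pdcd1*, T_NP), -0.45 to 0.64 (*Cd3e*, MG_NP against MG_N), -0.14 to 0.77 (*Cd3e*, T_NP against T_N), -0.42 to 0.68 (*Cd3e*, difference between cohorts), -0.32 to 0.26 (*Cd8a* over *Cd4*, T_N) and -0.36 to 0.069 (*Serpinb9*, T_NP). The cause of these changes was not tested, and those that leave out libraries have fewer samples.

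Replicate numbers do not pair the samples: correlations of same-numbered deviations ran from -0.26 to 0.30, and in no comparison were all above 0.1. The replicate block gave 2, 0, 6, 4, 0 and 0 members called in the order MG_N and MG_NP against MG_WT, T_N against MG_N, T_NP against MG_NP, MG_NP against MG_N and T_NP against T_N. Under it the calls of *Prf1* in T_NP (adjusted p = 0.052), *Cd86* in T_N (0.0505) and *Ifng* in MG_NP against MG_WT (0.095) were lost, and *Ctla4* was called lower in MG_N against MG_WT (0.015), where MG_N replicate 4 has no partner and carries no weight. Depth limits *Foxp3*, *Ctla4* and *Ncr1* in tumors, where most libraries held under 10 reads of each.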

Other observations

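*Il2rb*, the interleukin 2 and 15 receptor chain shared by T and NK cells, repeated the split among the MG_NP glands: replicates 1 and 3 held 2532 and 2465 normalized counts and replicates 2 and 4 held 107 and 125. In MG_N it held 237, 87.3, 272 and 1345. The 8 tumors held 21.1 to 112, and the MG_WT glands held 204, 296 and 248. *Tnfrsf18*, which encodes the receptor GITR of regulatory T cells, was called in neither comparison of tumor and gland, with 115, 103, 65.6 and 74.7 in T_N, 50.5, 70.8, 153 and 114 in T_NP, 59.9, 41.4, 89.2 and 122 in MG_N and 158, 27.1, 198 and 25.8 in MG_NP. Both genes were chosen after their values were seen. Among the replicate pairs of tumor-bearing mice, T_NP replicates 1 and 2 were the closest by a chi-square of their counts per gene, at 39.2 against 70.8 to 571, and still far from the value of 1 that sampling noise alone gives. The correlation of their log2 values was 0.9775, against 0.870 to 0.971 in the other such pairs and 0.980 to 0.984 in the deeper MG_WT libraries.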
